A study of Macaca mulatta with 12 samples.

Results

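The genes described here break down the branched-chain amino acids leucine, isoleucine and valine, or switch that breakdown on. The list held 10 genes: BCAT1, BCAT2, BCKDHA, BCKDHB, DBT, PPM1K, ACADSB, HIBCH, HIBADH and ALDH6A1. They were found by gene symbol, and 19 of the 52865 probe sets on the array named 1 of them and no other gene. These 19 probe sets covered 8 of the 10 genes, while BCKDHA and ACADSB were not analysed here. A probe set is a group of short probes that together give 1 value for a transcript, and a gene can have several. The probe sets of a gene are numbered here from the brightest. The theme was selected on measured values: BCAT1 and ALDH6A1 had stood out in estrogen plus progesterone minus placebo, and PPM1K in estrogen plus progesterone minus progesterone. The values of the members in these 2 contrasts are therefore given as a description, with no p value printed for any of them. Counts of members past a p threshold there, and 1 call under another normalization, are read as no evidence about the members.

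RNA came from tissue blocks of the dorsal raphe, a midbrain nucleus rich in serotonin neurons. There were 12 female rhesus monkeys, with 1 array for each. The 4 groups of 3 animals carried capsules under the skin for 1 month, with estrogen plus progesterone, estrogen, progesterone or placebo. Placebo arrays are titled with the code OVX, taken to mean ovariectomized. The other titles lack this code, so the labels leave it unstated whether all 4 groups share that surgery. Progesterone arrays have EP in the title but P in the description, and are treated here as progesterone alone. Neither doses nor ages are given in the sources used here.

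Breakdown of branched-chain amino acids begins with a transaminase, which hands the amino group to 2-oxoglutarate and so makes glutamate. BCAT1 is the cytosolic and BCAT2 the mitochondrial transaminase, and in rat brain the cytosolic enzyme is found mainly in neurons and the mitochondrial one mainly in astrocytes. The keto acids then meet the branched-chain keto acid dehydrogenase complex in mitochondria, the committed step, which is switched off by phosphorylation and switched on again by the phosphatase that PPM1K encodes. After it the 3 amino acids part, and HIBCH, HIBADH and ALDH6A1 act one after another on the valine branch. In the brain the first step is known as a source of nitrogen for glutamate.

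All values are log2 intensity after normalization unless said otherwise, and a difference of 1 on this scale is a doubling. A total of 26383 probe sets, those whose mean over the arrays reached the median of all means, were tested with limma, with Benjamini-Hochberg adjusted p under 0.05 as the threshold. Among the members 17 of 19 were bright enough, and they stand for 7 genes. The probe set of DBT and probe set 3 of PPM1K were too dim. The 3 progesterone arrays stood apart on the second principal component (-54.5 to -14.1, against 0.5 to 20.4 on the other 9 arrays), and on the EF1A control the 3′ probe set exceeded the 5′ probe set by -0.367 to -0.311 (log2) in progesterone and by -0.0802 to 0.738 in the others. Array 1 of estrogen plus progesterone, of estrogen and of placebo stood apart on the first component, at -51.6 to -44, against -1.64 to 29 on the other 9 arrays. Of these, array 1 of estrogen (0.738) and of estrogen plus progesterone (0.65) had the highest EF1A differences, against -0.035 on placebo array 1. On the remaining arrays the highest EF1A difference was 0.219. The serotonin markers TPH2, FEV and SLC18A2 averaged 7.31, 9.47 and 10.1, HTR1A and LMX1B were too dim to be tested, and no measured serotonin marker was at the floor on all arrays. The part of these differences between arrays in the results was not tested.

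The first step of the pathway had 5 probe sets, 4 for BCAT1 and 1 for BCAT2. BCAT1 probe set 3 (MmugDNA.29406.1.S1_at) had 7.36, 7.48 and 7.29 in estrogen plus progesterone, 6.81, 7.04 and 6.60 in estrogen, 7.22, 6.75 and 7.19 in progesterone, and 6.24, 6.45 and 6.73 in placebo. All 3 arrays of the combined treatment lay above all 9 other arrays, while progesterone overlapped with estrogen and estrogen with placebo. In the values as the authors deposited them, intensity was 150 to 176 units in estrogen plus progesterone and 85.4 to 124 in estrogen. It was 110 to 161 in progesterone and 75.2 to 103 in placebo. There progesterone array 3 (161) lay above array 3 of the combined treatment (150), so these groups overlapped before normalization. Estrogen plus progesterone minus placebo was 0.90 ± 0.19 (SE, n = 3 arrays each), a fold of 1.87. In this contrast BCAT1 probe sets 1, 2 and 4 gave -0.17 ± 0.40, 0.33 ± 0.37 and 0.56 ± 0.25. Probe set 3 averaged 6.93 over the arrays, and probe set 1, the brightest, 9.72.

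The other BCAT1 probe sets ordered the groups differently. Probe set 4 (MmugDNA.10516.1.S1_at) had 6.83, 6.87 and 6.20 in estrogen plus progesterone, 6.19, 6.65 and 6.03 in estrogen, 7.15, 6.85 and 6.79 in progesterone, and 5.69, 6.14 and 6.38 in placebo. Probe set 2 (MmugDNA.34560.1.S1_at) had 7.78, 6.76 and 7.29 in estrogen plus progesterone, 7.05, 7.43 and 7.47 in estrogen, 7.73, 7.79 and 8.37 in progesterone, and 6.08, 7.11 and 7.66 in placebo. On both, progesterone had the highest group mean, and its arrays lay above all placebo and all estrogen arrays but overlapped with the combined treatment. Probe set 1 (MmuSTS.2151.1.S1_at) had 9.41, 9.74 and 9.68 in estrogen plus progesterone, 8.24, 9.88 and 10.35 in estrogen, 10.04, 10.08 and 9.92 in progesterone, and 9.69, 9.82 and 9.83 in placebo. Here the estrogen group held both the lowest and the highest of the 12 arrays, and progesterone lay above all arrays of placebo and of the combined treatment.

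Progesterone alone against placebo is a contrast that did not choose BCAT1, although it shares the placebo arrays with one that did. After normalization, all 4 BCAT1 probe sets had their 3 progesterone arrays above their 3 placebo arrays, where 7.41% of all tested probe sets did. On probe set 1 the groups overlapped as deposited, with 904.6 on progesterone array 3 and 833 to 921 in placebo. The 4 are probe sets of 1 gene on the same arrays, so they do not count as separate evidence. The difference was 1.01 ± 0.37 on probe set 2 (95% confidence interval 0.20 to 1.83), 0.58 ± 0.19 on probe set 3 (0.17 to 0.99), 0.86 ± 0.25 on probe set 4 (0.32 to 1.40) and 0.23 ± 0.40 on probe set 1 (-0.64 to 1.11). None passed the threshold: limma's adjusted p was 0.404, 0.330, 0.255 and 0.901 for probe sets 2, 3, 4 and 1. The list of serotonin markers, of which 8 of 10 were measured, summed to an intensity of 2121 to 2681 in progesterone and 2697 to 3856 in placebo. On each measured marker alone, the arrays of these groups overlapped. The part of this list in the BCAT1 values was not tested. In a bulk sample, fewer cells of a type and less RNA per cell cannot be told apart.

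Against placebo, estrogen alone gave differences of -0.29 ± 0.40, 0.37 ± 0.37, 0.35 ± 0.19 and 0.22 ± 0.25 on BCAT1 probe sets 1 to 4, with an adjusted p of 0.9997 for each. Single arrays moved these values: probe set 1 was at 0.33 without estrogen array 1, and probe sets 2, 3 and 4 were at -0.07, 0.23 and 0.03 without placebo array 1. Estrogen minus progesterone was -0.64 ± 0.25 on probe set 4 (adjusted p = 0.442) and -0.65 ± 0.37 on probe set 2 (adjusted p = 0.610), and on both the estrogen arrays lay below the progesterone arrays. Over the 12 arrays, probe sets 3 and 4 correlated at r = 0.75 and probe sets 2 and 4 at 0.63, while probe sets 1 and 3 correlated at -0.06. These correlations describe 1 gene on shared arrays and carry no test.

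BCAT2 (MmuSTS.2152.1.S1_at), the mitochondrial transaminase, had 7.59, 8.31 and 7.41 in estrogen plus progesterone, 6.32, 7.72 and 7.96 in estrogen, 7.51, 8.11 and 7.54 in progesterone, and 8.05, 8.19 and 7.90 in placebo. The placebo group had the highest mean, but every hormone group overlapped with it. The differences from placebo were -0.28 ± 0.38 for estrogen plus progesterone, -0.71 ± 0.38 for estrogen (95% confidence interval -1.55 to 0.12, adjusted p = 0.9997) and -0.33 ± 0.38 for progesterone (adjusted p = 0.841). Array 1 of the estrogen group, where BCAT1 probe set 1 was also lowest, was the lowest of all 12, and without it the estrogen value was -0.21.

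**Figure D1:**
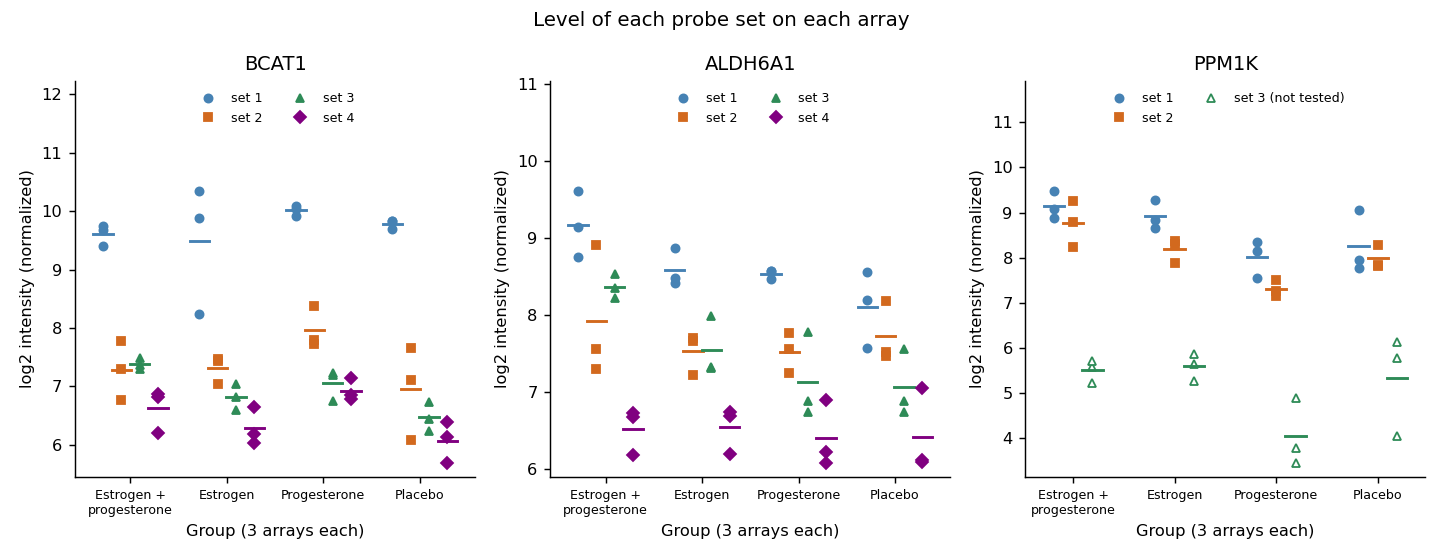
Log2 intensity (y axis) of the probe sets of BCAT1, ALDH6A1 and PPM1K, with 1 point per array, a line at each group mean, and the groups from left to right as estrogen plus progesterone, estrogen, progesterone and placebo. In these normalized values, the 3 arrays of the combined treatment lie above the other 9 on BCAT1 probe set 3 and ALDH6A1 probe set 3. On PPM1K probe set 2 the 3 progesterone arrays lie below the other 9.

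The second step, the dehydrogenase complex, was covered by BCKDHB, the beta subunit of its first enzyme, and by DBT, its core acyltransferase. BCKDHB probe set 1 (MmugDNA.41558.1.S1_s_at) had 8.52, 8.17 and 8.35 in estrogen plus progesterone, 8.32, 8.25 and 8.47 in estrogen, 7.87, 8.14 and 7.48 in progesterone, and 8.53, 7.77 and 8.21 in placebo. The progesterone arrays lay below all arrays of both estrogen-treated groups and overlapped with placebo. Estrogen minus progesterone was 0.52 ± 0.22 (95% confidence interval 0.04 to 0.997, adjusted p = 0.487), and estrogen plus progesterone minus progesterone was also 0.52 ± 0.22. The ending of its name, _s_at, marks probes that may match more than 1 transcript.

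The second BCKDHB probe set (MmugDNA.25348.1.S1_at) scattered widely, with 7.30, 8.00 and 7.38 in estrogen plus progesterone, 7.57, 8.33 and 7.14 in estrogen, 6.08, 6.82 and 8.80 in progesterone, and 8.49, 7.84 and 8.36 in placebo. Progesterone held both the lowest and the highest array. Progesterone minus placebo was -0.99 ± 0.56 (adjusted p = 0.607), and it lay between -1.80 and -0.42 when single arrays were left out. The BCKDHB probe sets correlated at r = -0.12 over the 12 arrays. DBT (MmugDNA.42126.1.S1_at) was too dim to be tested and lay between 4.98 and 5.92 on all arrays, with overlap of all groups.

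PPM1K, the mitochondrial phosphatase that activates the complex, showed its lowest levels under progesterone alone. Probe set 2 (Mmu.289.1.S1_at) had 9.26, 8.24 and 8.79 in estrogen plus progesterone, 8.37, 8.31 and 7.88 in estrogen, 7.50, 7.15 and 7.26 in progesterone, and 7.84, 7.82 and 8.28 in placebo. The progesterone arrays lay below all 9 others, while the combined treatment overlapped with estrogen and estrogen with placebo. As deposited, this was 305 to 589 intensity units in estrogen plus progesterone, 229 to 325 in estrogen, 143 to 179 in progesterone and 227 to 312 in placebo. Estrogen plus progesterone minus progesterone was 1.46 ± 0.25, a fold of 2.75.

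PPM1K probe set 1 (MmugDNA.43579.1.S1_at) had 9.49, 8.89 and 9.09 in estrogen plus progesterone, 8.84, 9.28 and 8.65 in estrogen, 8.15, 8.34 and 7.56 in progesterone, and 7.77, 7.94 and 9.05 in placebo. Both estrogen-treated groups lay above progesterone, but placebo array 3 was as high as they were and the other placebo arrays were as low as progesterone. The difference of the combined treatment from progesterone was 1.14 ± 0.33 here. Probe set 3 (MmugDNA.24824.1.S1_at), too dim to be tested, had 5.21, 5.58 and 5.72 in estrogen plus progesterone, 5.26, 5.65 and 5.87 in estrogen, 4.89, 3.45 and 3.78 in progesterone, and 4.04, 6.14 and 5.78 in placebo. On it too the arrays of progesterone lay below those of both estrogen-treated groups. Probe sets 1 and 2 correlated at r = 0.82 over the 12 arrays. Estrogen plus progesterone also had higher means than placebo on both, by 0.90 ± 0.33 and 0.78 ± 0.25, with overlap on each. Without array 1 of estrogen plus progesterone, estrogen and placebo, these differences were 0.50 and 0.47.

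In the contrasts that did not choose PPM1K, estrogen minus progesterone was 0.91 ± 0.33 on probe set 1 (95% confidence interval 0.18 to 1.64, adjusted p = 0.423) and 0.88 ± 0.25 on probe set 2 (0.33 to 1.43, adjusted p = 0.282). On both, all 3 estrogen arrays lay above all 3 progesterone arrays. Progesterone minus placebo was -0.24 ± 0.33 on probe set 1 (adjusted p = 0.875) and -0.68 ± 0.25 on probe set 2 (adjusted p = 0.407), and the first of these was 0.16 without placebo array 3. Estrogen minus placebo was 0.67 ± 0.33 on probe set 1 and 0.20 ± 0.25 on probe set 2 (adjusted p = 0.9997 for both). Estrogen minus progesterone and progesterone minus placebo share the progesterone arrays with the contrast that chose the gene, so they are not independent of it, while estrogen minus placebo shares no array with it. Estrogen minus placebo on probe set 1 was 0.43 without placebo array 1 and 1.07 without placebo array 3, and on probe set 2 it was 0.11 without estrogen array 1 and 0.35 without estrogen array 3. The serotonin marker list summed to 2121 to 2681 in progesterone, below all 9 other arrays (2697 to 3962), and the ependyma and choroid plexus list, of which 3 of 6 genes were measured, to 240 to 381 in estrogen plus progesterone, 230 to 300.2 in estrogen, 140 to 236 in progesterone and 198 to 288 in placebo. Progesterone overlapped with estrogen and placebo on that list, and with placebo on each serotonin marker alone. The part of both lists in the PPM1K values was not tested.

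On the valine branch, ALDH6A1 stood out in estrogen plus progesterone. It is the methylmalonate semialdehyde dehydrogenase that makes propionyl-CoA at its end. ALDH6A1 probe set 3 (MmugDNA.27418.1.S1_at) had 8.54, 8.35 and 8.23 in estrogen plus progesterone, 7.33, 7.32 and 7.99 in estrogen, 6.75, 6.89 and 7.79 in progesterone, and 6.74, 6.89 and 7.57 in placebo. The combined treatment lay above all 9 other arrays, and the other 3 groups overlapped, each with its highest value on array 3. As deposited, this was 299 to 362 intensity units in estrogen plus progesterone, 153 to 250 in estrogen, 103 to 229 in progesterone and 106 to 190 in placebo. Estrogen plus progesterone minus placebo was 1.31 ± 0.30, a fold of 2.47, and estrogen plus progesterone minus progesterone was 1.23 ± 0.30.

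ALDH6A1 probe set 1 (MmugDNA.41512.1.S1_at) had 9.62, 9.14 and 8.76 in estrogen plus progesterone, 8.88, 8.42 and 8.48 in estrogen, 8.48, 8.57 and 8.58 in progesterone, and 7.58, 8.19 and 8.57 in placebo. The combined treatment lay above progesterone and placebo and overlapped with estrogen. Its difference from placebo was 1.06 ± 0.27, a fold of 2.09, and was 0.58 without array 1 of estrogen plus progesterone, of estrogen and of placebo. Probe set 2 (MmugDNA.4104.1.S1_at) had 8.91, 7.56 and 7.30 in estrogen plus progesterone, 7.71, 7.67 and 7.23 in estrogen, 7.56, 7.26 and 7.77 in progesterone, and 7.52, 7.48 and 8.19 in placebo. Array 1 of the combined treatment was the highest on this probe set: estrogen plus progesterone minus placebo was 0.20 ± 0.37, and -0.30 without that array. Probe set 4 (MmugDNA.9256.1.S1_at) lay between 6.08 and 7.06 on all arrays, with overlap of all groups and a difference of 0.11 ± 0.30 from placebo.

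Over the 12 arrays, ALDH6A1 probe sets 1 and 3 correlated at r = 0.76, and probe sets 1 and 4 at 0.08. The contrasts that follow share the combined-treatment or the placebo arrays with the one that chose ALDH6A1, and are not independent of it. Estrogen plus progesterone minus estrogen was 0.83 ± 0.30 on probe set 3 and 0.58 ± 0.27 on probe set 1 (adjusted p = 0.9999 for both), the value on probe set 1 being 0.36 without array 1 of the combined treatment. Estrogen minus placebo was 0.48 on both probe sets, ± 0.30 and ± 0.27 (adjusted p = 0.9997 for both), and it was 0.26 on probe set 3 without estrogen array 3. On probe set 1 it was 0.21 without placebo array 1, and 0.07 without array 1 of estrogen plus progesterone, estrogen and placebo. Progesterone minus placebo was 0.07 ± 0.30 on probe set 3 (95% confidence interval -0.59 to 0.74, adjusted p = 0.968) and 0.43 ± 0.27 on probe set 1 (-0.15 to 1.01, adjusted p = 0.653). Without progesterone array 3 the value on probe set 3 was -0.25, and without placebo array 1 that on probe set 1 was 0.16, against 0.66 without placebo array 3.

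HIBCH (MmugDNA.7950.1.S1_at), the hydrolase that frees 3-hydroxyisobutyrate from its coenzyme A ester, had 8.24, 8.17 and 8.45 in estrogen plus progesterone, 8.34, 8.75 and 8.76 in estrogen, 8.21, 7.92 and 8.45 in progesterone, and 8.66, 8.65 and 8.44 in placebo. Both groups given progesterone had lower means than both groups without it, with overlap of single arrays. Progesterone minus placebo was -0.39 ± 0.18 (adjusted p = 0.513), and estrogen minus progesterone was 0.43 ± 0.18 (adjusted p = 0.481). The main effect of progesterone, the 6 arrays with it minus the 6 without, was -0.36 ± 0.13 (adjusted p = 0.710).

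HIBADH oxidises 3-hydroxyisobutyrate in mitochondria, and its group means lay close together. Probe set 1 (MmugDNA.19050.1.S1_at) lay between 10.94 and 11.32 on the 12 arrays, probe set 2 (MmugDNA.17203.1.S1_at) between 8.61 and 9.14, and probe set 3 (MmugDNA.23083.1.S1_at) between 7.40 and 8.38. Against placebo, the combined treatment differed by -0.10 ± 0.15, -0.05 ± 0.17 and 0.29 ± 0.21 on probe sets 1 to 3. Progesterone minus placebo was -0.19 ± 0.15 on probe set 1 (adjusted p = 0.747), with the progesterone arrays below the placebo arrays.

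**Figure D2:**
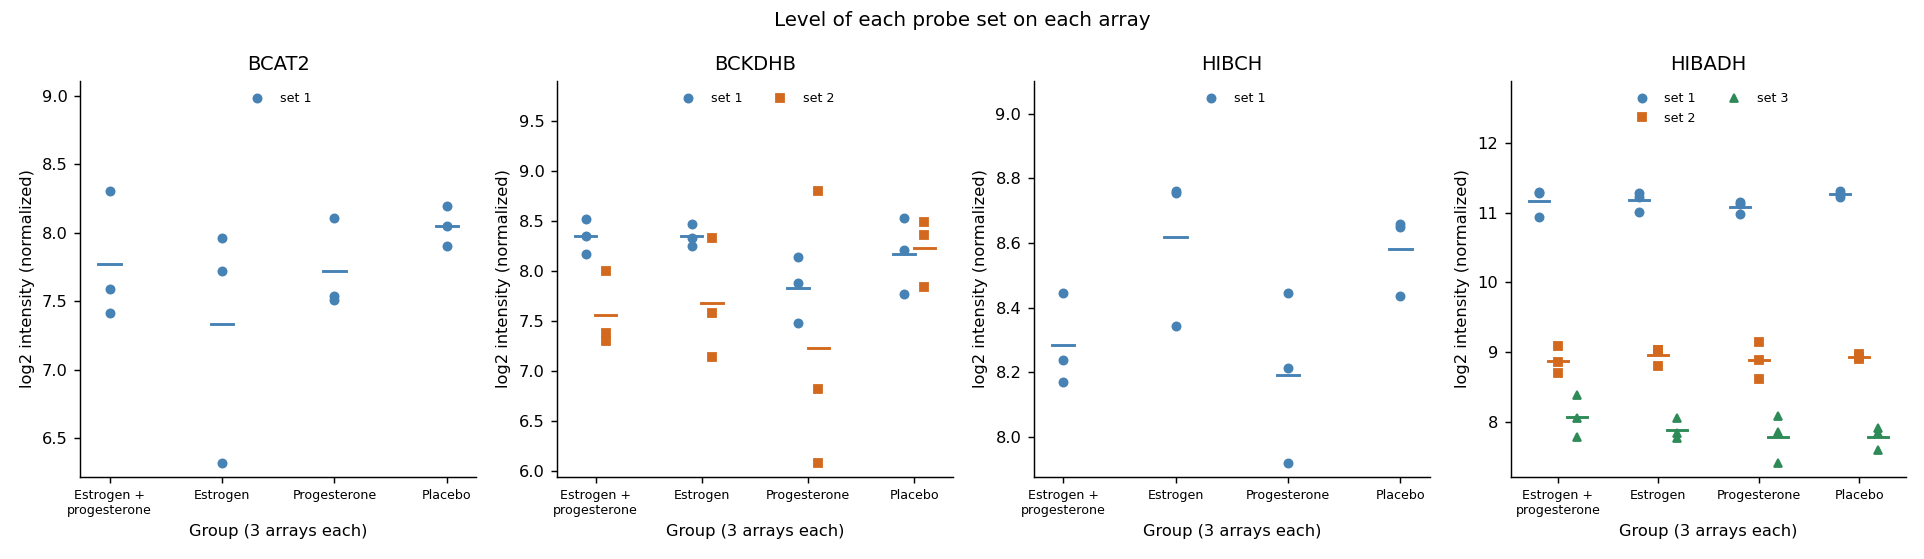
Log2 intensity (y axis) of the probe sets of BCAT2, BCKDHB, HIBCH and HIBADH, with 1 point per array, a line at each group mean, and the groups in the order estrogen plus progesterone, estrogen, progesterone and placebo. The groups overlap on most panels; on BCKDHB probe set 1 the progesterone arrays lie below those of both estrogen-treated groups.

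No member probe set passed the adjusted threshold in any of the 9 contrasts fitted with limma. For estrogen plus progesterone minus placebo the count was 0 of 17, where 0% of all tested probe sets were called, and 11 members were higher and 6 lower, with a median difference of 0.20 beside -0.01 over all tested probe sets. At an unadjusted p under 0.05 there were 6 members and 3.85% of all probe sets, but this contrast chose 2 of the genes, so nothing is read from these counts. In it 3 members had all arrays above placebo (BCAT1 probe set 3 and ALDH6A1 probe sets 1 and 3), where 4.68% of all probe sets did, and 0 had all below, where 5.84% did.

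For estrogen plus progesterone minus progesterone, which chose PPM1K, the count was 0 of 17, where 0.0834% of all probe sets were called. In this contrast 13 members were higher and 4 lower, with a median of 0.29 beside 0.01 over all tested probe sets. At an unadjusted p under 0.05 there were 5 members and 11.4% of all probe sets. The 5 include the 2 PPM1K probe sets that were tested, and nothing is read from these counts either. Arrays did not overlap for 6 members that were higher, among them both tested PPM1K probe sets, ALDH6A1 probe sets 1 and 3, BCAT1 probe set 3 and BCKDHB probe set 1, where 8.4% of all probe sets were higher without overlap. On BCAT1 probe set 3 this held after normalization but not in the deposited values. BCAT1 probe set 1 was the 1 member lower without overlap, where 8.6% of all probe sets were.

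In progesterone minus placebo 0 members were called, where 0.133% of all probe sets were called, and 4 members beside 9.87% of all probe sets had an unadjusted p under 0.05. These 4 were BCAT1 probe sets 2, 3 and 4 and PPM1K probe set 2. After normalization, the 4 members higher without overlap were the BCAT1 probe sets, where 7.41% of all probe sets did so. The 2 lower without overlap were PPM1K probe set 2 and HIBADH probe set 1, where 7.86% did. BCAT1 probe set 1 overlapped in the deposited values. The median over the 17 members was -0.05, beside -0.02 over all. This contrast shares the placebo or the progesterone arrays with those that chose the members, so nothing is read from its counts.

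Estrogen minus progesterone gave 0 of 17 calls, where 0.133% of all probe sets were called, with 5 members and 9.85% of all probe sets at an unadjusted p under 0.05. The 3 members higher without overlap were PPM1K probe sets 1 and 2 and BCKDHB probe set 1, where 7.45% of all probe sets were, and the 2 lower were BCAT1 probe sets 2 and 4, where 6.65% were. Estrogen minus placebo gave 0 of 17, where 0% were called, with 0 members and 2.65% of all probe sets at an unadjusted p under 0.05. There 0 members were higher and 0 lower without overlap, where 3.56% and 3.98% of all probe sets were. Estrogen plus progesterone minus estrogen gave 0 of 17, where 0% were called, with 3 members and 2.98% of all probe sets at an unadjusted p under 0.05. These 3 members were BCAT1 probe set 3, ALDH6A1 probe set 3 and PPM1K probe set 2. BCAT1 probe set 3 and ALDH6A1 probe set 3 were the 2 members higher without overlap, where 4.04% of all probe sets were, and 0 were lower, where 4.05% were. Estrogen minus progesterone shares the progesterone arrays, and estrogen plus progesterone minus estrogen the combined-treatment arrays, with contrasts that chose members. Nothing is read from the counts in either.

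The main effects and the interaction mix the contrasts that chose the members with others. For the main effect of estrogen, of progesterone and for their interaction the count was 0 of 17 each, where 0% of all probe sets were called, and 6, 4 and 1 members had an unadjusted p under 0.05. Of all tested probe sets 7.63%, 6.25% and 6.4% did so in these 3 tests. The interaction asks whether estrogen acted differently with progesterone than without it. On PPM1K probe set 2 it was 1.26 ± 0.36, as estrogen plus progesterone minus progesterone (1.46) exceeded estrogen minus placebo (0.20).

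**Figure D3:**
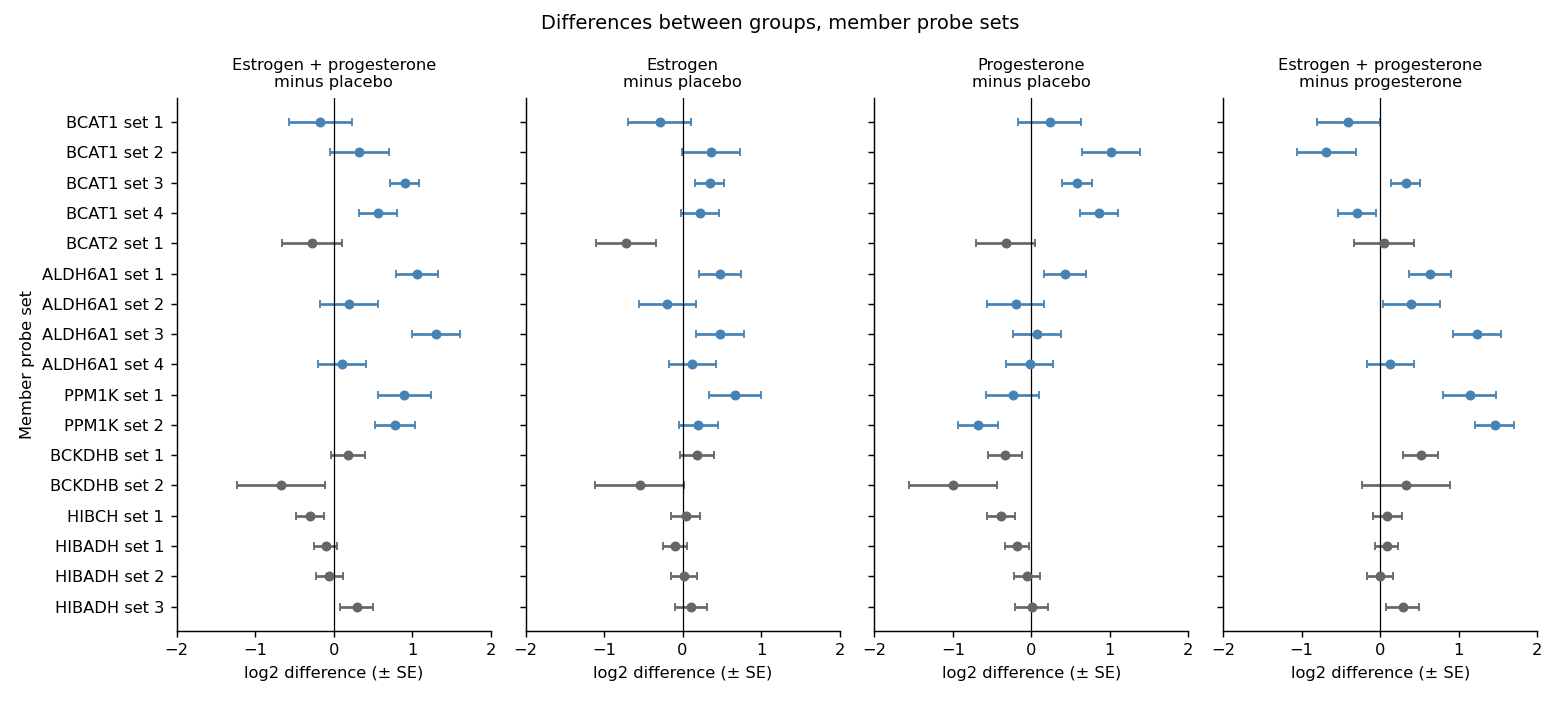
Log2 difference with its SE (x axis) of each tested member probe set (rows) in 4 contrasts (panels), with a line at 0. The BCAT1 rows lie right of 0 in progesterone minus placebo, at 0.23 to 1.01, and the PPM1K rows right of 0 in estrogen plus progesterone minus progesterone, at 1.14 and 1.46.

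Setting 1 group against all others shows how often an isolated group occurred. The combined treatment lay above all 9 other arrays on 0.455% of all tested probe sets, BCAT1 probe set 3 and ALDH6A1 probe set 3 among them. On BCAT1 probe set 3 this held after normalization but not in the deposited values. Progesterone lay below all 9 others on 2.07%, PPM1K probe set 2 among them, and above all 9 others on 2.48%, with 0 members. These 3 probe sets are the ones whose values chose the theme. The microglia marker list, with 7 of 7 genes measured, summed to 3243 to 3482 in estrogen plus progesterone, 3652 to 3993 in estrogen, 3530 to 4680 in progesterone and 3458 to 4389 in placebo. The astrocyte list, with 5 of 7 genes measured, summed to 20750 to 24590 in estrogen plus progesterone and 21050 to 22220 in estrogen. It summed to 20690 to 22780 in progesterone and 18690 to 21600 in placebo. The lowest sum was that of placebo array 1, where SLC1A2 was 8.75, against 11.7 to 12.2 on the other arrays. Neither list's part in the values of BCAT1 and ALDH6A1 was tested.

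The sizes of the leading differences depended on single animals to an unequal degree. On BCAT1 probe set 3, estrogen plus progesterone minus placebo lay between 0.79 and 1.03 when each of the 12 arrays was left out in turn, and on ALDH6A1 probe set 3 between 1.14 and 1.55. On BCAT1 probe set 4 it was 0.56 ± 0.25 with all arrays, 0.37 without placebo array 1 and 0.28 without array 1 of estrogen plus progesterone, estrogen and placebo. On PPM1K probe set 2, estrogen plus progesterone minus progesterone lay between 1.22 and 1.72, the lowest without array 1 of the combined treatment. Progesterone minus placebo on BCAT1 probe set 2 was 0.58 without placebo array 1, where 1.01 was measured with all arrays.

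**Figure D4:**
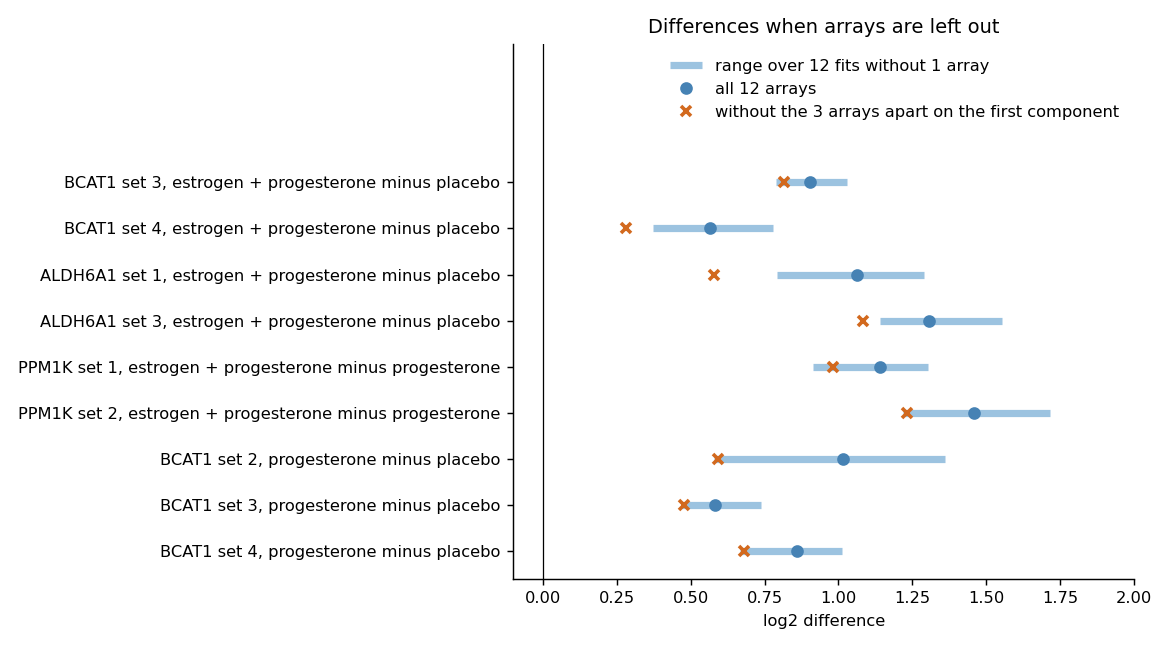
Log2 difference (x axis) of leading probe sets and contrasts (rows), with all 12 arrays (dots), over the 12 fits that each left out 1 array (bars) and without array 1 of estrogen plus progesterone, estrogen and placebo (crosses). All values lie right of 0, and the crosses lie left of the dots, farthest for ALDH6A1 probe set 1 (0.58 against 1.06).

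Genes whose pattern over the 12 arrays was most like that of the brightest member probe sets were looked up among 9304 other named genes, by Pearson correlation of log2 intensity on each gene's brightest probe set. For BCAT1 probe set 1 these were MPDZ, PINX1, MOB1A, MEIOB and SERINC5, with r of 0.946 to 0.908. Their rank correlations were lower, 0.853 for MOB1A to 0.420 for SERINC5, and on this probe set estrogen array 1 lay far below the other arrays. For ALDH6A1 probe set 1 they were BTN3A3, PRR14, RLF, ZNF692 and SPACA9, with r of 0.873 to 0.844 and rank correlations of 0.643 to 0.909. For PPM1K probe set 1 they were BAX, UBR2, UBE2R2, HSPBAP1 and OTUB1, with r of 0.921 to 0.875 and rank correlations of 0.811 to 0.937. The same was done, after the values were seen, for the probe sets with the leading differences. The most alike were BTN3A3 (r = 0.830), ZYX, FAM241B, CNTLN and GNAO1 (0.791) for BCAT1 probe set 3, C9H10orf53 (0.900), MAP2K5, LRRC42, AGO1 and PECAM1 (0.816) for ALDH6A1 probe set 3, and IL17RC (0.940), FAU, ZNF414, ADGRB2 and TUBA4A (0.872) for PPM1K probe set 2. The points share their arrays, and the highest of so many correlations over 12 points carries no test.

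Around the members, 43 further genes of the pathway were listed, of which 29 had a probe set and 25 were tested, each on its brightest. In all 9 contrasts 0 of the 25 passed the threshold. With estrogen plus progesterone minus placebo 15 were higher and 10 lower, with a median of 0.03. None had an unadjusted p under 0.05 (0 of 25), where 3.85% of all tested probe sets did. In estrogen plus progesterone minus progesterone 15 were higher and 10 lower, with a median of 0.04, and 1 (MCCC1) had an unadjusted p under 0.05, where 11.4% of all tested probe sets did. In progesterone minus placebo 9 were higher and 16 lower, with a median of -0.06, and 2 (IVD and MCCC1), or 8% of the 25, had an unadjusted p under 0.05, less than the 9.87% of all tested probe sets. The limma adjusted p of every gene below was 0.9988 in estrogen plus progesterone minus placebo and at least 0.388 in estrogen plus progesterone minus progesterone.

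The kinase BCKDK, which opposes the phosphatase of PPM1K, differed from placebo by 0.14 ± 0.20 in the combined treatment, and by -0.01 ± 0.20 from progesterone. DLD, a subunit the complex shares with other dehydrogenases, differed by -0.16 ± 0.21 and 0.00 ± 0.21. All 4 values lay within 1 SE of 0. Of 6 carriers of large neutral amino acids 2 were tested: SLC7A8 differed by 0.06 ± 0.27 from placebo and 0.38 ± 0.27 from progesterone, and SLC6A15 by -0.07 ± 0.19 and -0.17 ± 0.19.

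The leucine branch had 4 tested genes. All 4 were higher in estrogen plus progesterone than in placebo, where 47.9% of all tested probe sets were higher. AUH, the hydratase of this branch, differed by 0.23 ± 0.15, with all 3 arrays above placebo. MCCC2, a subunit of methylcrotonyl-CoA carboxylase, differed by 0.09 ± 0.15, MCCC1 by 0.03 ± 0.13 and IVD by 0.08 ± 0.23, each within 1 SE of 0. Against progesterone, MCCC1, the carboxylase's other subunit, differed by 0.32 ± 0.13 with no overlap (adjusted p = 0.388), and IVD, isovaleryl-CoA dehydrogenase, differed by -0.50 ± 0.23 with no overlap (adjusted p = 0.448). Progesterone minus placebo on the same genes was -0.29 ± 0.13 for MCCC1 (adjusted p = 0.495) and 0.58 ± 0.23 for IVD (adjusted p = 0.456). Estrogen minus progesterone on IVD was -0.89 ± 0.23 (95% confidence interval -1.40 to -0.37, adjusted p = 0.240), with the estrogen arrays below the progesterone arrays.

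Of the isoleucine and shared acyl-CoA steps 3 genes were tested. ACAD8, which serves valine as isobutyryl-CoA dehydrogenase, differed by 0.10 ± 0.19 from placebo and 0.24 ± 0.19 from progesterone, and HADHA, of the trifunctional protein, by -0.15 ± 0.26 and 0.20 ± 0.26. In the propionate branch, which takes up the product of ALDH6A1, MCEE differed by 0.18 ± 0.22 and 0.06 ± 0.22, and MMAB by 0.09 ± 0.18 and 0.23 ± 0.18. GLUL, the glutamine synthetase of astrocytes, differed by -0.06 ± 0.13 from placebo and -0.04 ± 0.13 from progesterone, and the alanine transaminase GPT2 by -0.21 ± 0.19 and 0.12 ± 0.19.

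Of the transcription factors, KLF15, known in mouse liver and muscle for driving amino acid breakdown genes, differed by -0.22 ± 0.23 from placebo and -0.38 ± 0.23 from progesterone, and PPARA by 0.10 ± 0.23 and 0.18 ± 0.23. Leucine sensing to the growth kinase complex mTORC1 had 6 tested genes. RPTOR and LARS1 differed from placebo by -0.15 ± 0.17 and -0.09 ± 0.17, and MTOR and SESN3 differed from progesterone by 0.40 ± 0.21 and 0.32 ± 0.45.

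**Figure D5:**
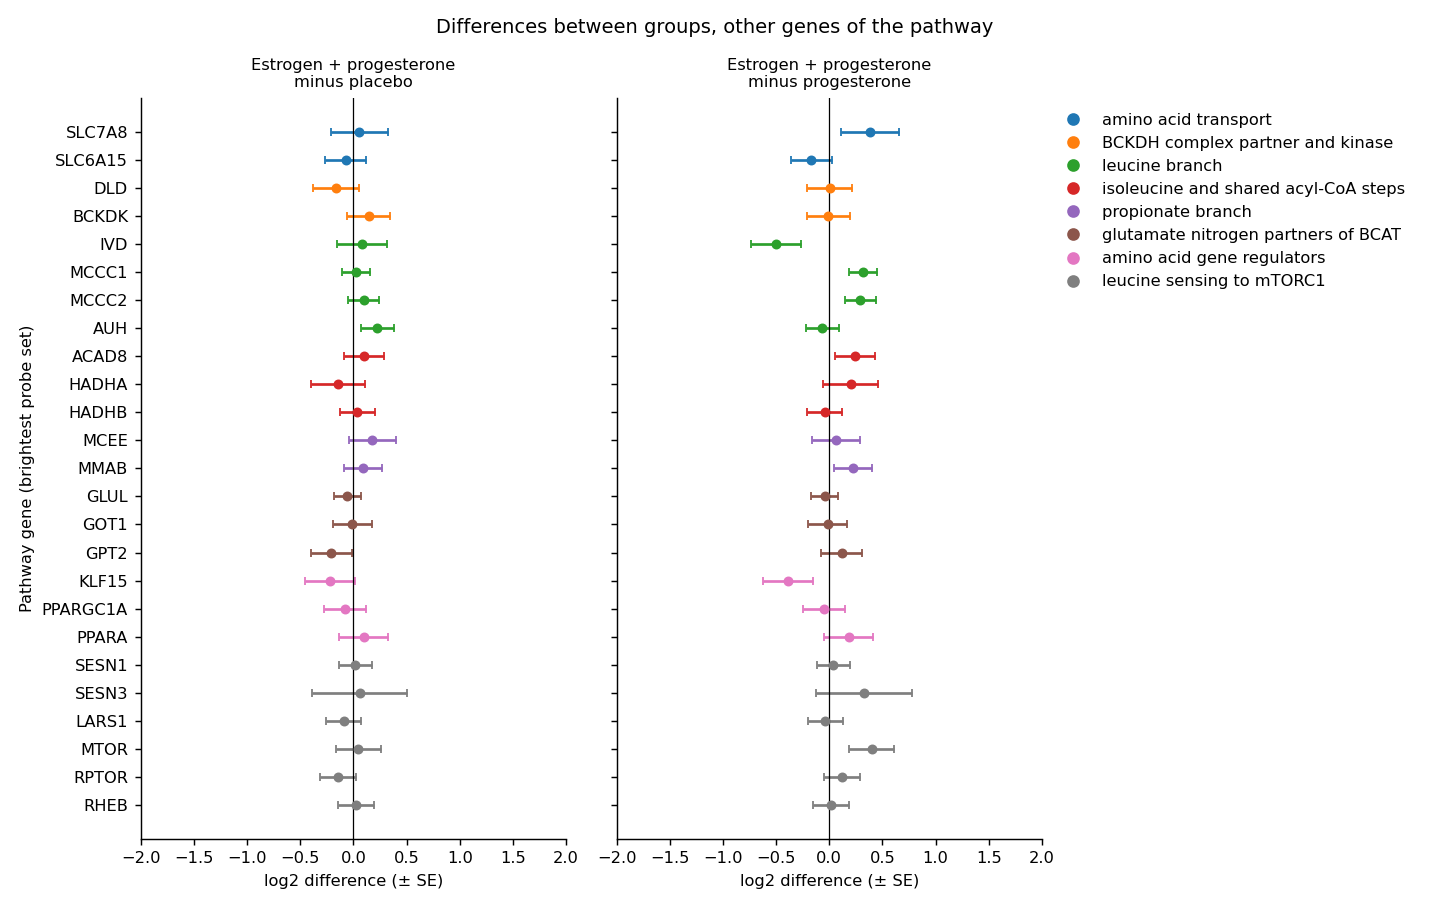
Log2 difference with its SE (x axis) of 25 further pathway genes (rows, coloured by list) in estrogen plus progesterone minus placebo (left) and estrogen plus progesterone minus progesterone (right). The values lie between -0.22 and 0.23 on the left and between -0.50 and 0.40 on the right.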

How the data were processed

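RNA of the dorsal raphe from 12 monkeys was hybridised to Affymetrix rhesus arrays. The authors deposited 1 linear intensity per probe set; the software and genome build behind these values are not given in the sources used here, and the mean of each array without its lowest and highest 2% was 200. Of 52865 probe sets 99 controls were removed, and the other 52766 were raised to at least the 5th percentile of all values (intensity 4.99), put on the log2 scale and quantile normalized, since the deposited arrays' log2 medians differed (6.15 to 6.63, limit 0.15). Probe sets with a mean of at least 6.31 (26383) were tested with limma 3.58.1 in R 4.3.3, fitting a mean for each group on all 12 arrays (3.54 prior and 8 residual degrees of freedom), two-sided, with Benjamini-Hochberg adjustment over all of them. With 3 arrays against 3, an exact permutation test cannot go below p = 0.1, so no such test was used. The fit and adjustment were tried on simulated data, with independent noise for each probe set and known differences added to the combined treatment. The floor, normalization and filter were outside that trial, as were differences between arrays that many probe sets share. Figures used matplotlib 3.10.9 in Python 3.11.15.

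Symbols came from the platform's gene table: 24956 probe sets had 1 symbol, 361 several and 27449 none, and only those with 1 were named. Members, lists, tests and alternatives were chosen with earlier results of these data known. Named were all members, the 2 genes of each pathway list with the lowest p in estrogen plus progesterone minus placebo and minus progesterone, and the 5 genes most like the brightest probe set of BCAT1, ALDH6A1 and PPM1K. MCCC1 and IVD in progesterone minus placebo, IVD in estrogen minus progesterone, and the genes most like the probe sets with the leading differences were described after their values were seen. Marker sums are of linear normalized intensity. Neurons (3 of 7 genes measured), oligodendrocytes (5 of 8), endothelium and pericytes (4 of 6) and cerebellar neurons (6 of 8) were also listed: summed levels in estrogen plus progesterone, estrogen, progesterone and placebo were 9117 to 10710, 9888 to 11720, 9373 to 11060 and 9407 to 10710 for neurons, 20350 to 22190, 19060 to 21220, 19810 to 23240 and 21470 to 22180 for oligodendrocytes, 663 to 748, 621 to 950, 639 to 694 and 540 to 861 for endothelium, and 775 to 1568, 952 to 2504, 720 to 1072 and 814 to 885 for cerebellar neurons.

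Replicate numbers 1 to 3 recur in the groups, and no label ties them to a shared day or litter. Deviations of same-numbered arrays correlated at 0.103 to 0.274 between estrogen plus progesterone and placebo. Between estrogen plus progesterone and estrogen they correlated at 0.142 to 0.507. By the rule of r over 0.1 in every pair these groups met the limit for pairing, and other groups did not. The reported fit nevertheless held no block, so all its SE, confidence intervals and adjusted p are unpaired. A block on replicate number over all 4 groups was fitted as an alternative. Over all groups the median was 0.027 for same-numbered pairs and 0.0122 for others. The alternatives were other normalizations, filters, floors, fits, array weights, the replicate block and left-out arrays.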

Additional observations from a re-analysis of the deposited data

How the results depend on the processing

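Across 23 other settings, 12 of them leaving out 1 array, the counts of called member probe sets and pathway genes were 0 in every contrast, as reported, with 1 exception. With median alignment in place of quantile normalization, 1 member passed in estrogen plus progesterone minus progesterone: PPM1K probe set 2, at 1.48 ± 0.24 (1.46 ± 0.25 as reported). The cause was not tested, and this contrast chose the gene, so nothing is read from the call. With a block on replicate number over all 4 groups, this difference on PPM1K probe set 2 was 1.46 ± 0.24. Same-numbered arrays of estrogen plus progesterone and progesterone correlated at -0.26 to -0.0803, so these groups did not meet the limit for pairing. The block changed no call of a member or pathway gene. Over all probe sets, the counts of calls moved by more than 1.5 times: 0 to 55 for progesterone minus placebo (35 as reported; 20 with the replicate block), 0 to 47 for estrogen plus progesterone minus progesterone (22) and 5 to 72 for estrogen minus progesterone (35), and 0 to 8 in the other contrasts (0). Without array 1 of estrogen plus progesterone, estrogen and placebo, estrogen plus progesterone minus placebo was -0.36 on BCAT1 probe set 2 (0.33 with all arrays) and -0.41 on ALDH6A1 probe set 2 (0.20). With 3 arrays a group, the 95% confidence interval of a difference extended a median of 0.488 to each side.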
